A study of Mus musculus with 16 samples.

Results

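Wnt ligands are secreted, lipid-modified glycoproteins that act over short distances through Frizzled receptors, either with the co-receptors Lrp5 and Lrp6 to stabilise β-catenin or with other receptors such as Ror2 and Ryk. Secreted inhibitors hold them in check: the secreted Frizzled-related proteins (Sfrp) and Wif1 bind the ligands outside the cell, and the Dickkopf (Dkk) proteins act mostly on the co-receptors. In the spinal cord, Wnt proteins are known as guidance cues for axons, with Ryk as the receptor that mediates repulsion. Expression of 10 such genes was described in single cells of the mouse spinal cord: the ligands Wnt7a, Wnt7b, Wnt5a, Wnt9a, Wnt4 and Wnt6, and the inhibitors Sfrp5, Dkk3, Sfrp1 and Wif1. They were taken by symbol from a fixed list and make up 10 of the 55487 genes listed, of which 41193 had at least 1 UMI (unique molecular identifier, the tag of a captured RNA molecule) in the 18203 cells.

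Cells had been dissociated from cord tissue around a lesion of the dorsal columns at cervical level 5, and each of 16 mice gave 1 library of 3′ tags. WT mice carried the alleles Ryk+/+,GFAPcreERT2 and cKO mice Rykfl/fl,GFAPcreERT2, so that both genotypes carry the tamoxifen-inducible Cre recombinase. All mice were 8-10 weeks old and were given tamoxifen, and 2 of each genotype were sampled without injury and 2 on each of the days 1, 7 and 14 after the lesion (1 d, 7 d and 14 d). The uninjured mice are labelled Sham in the sample descriptions, whereas the methods of the study call them uninjured. Cre is driven by a GFAP promoter, so deletion is meant for cells in which that promoter is active. In which cell types Ryk was deleted was not analysed here.

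The 15 libraries used held 208 to 1845 cells and 536263 to 9008729 UMIs. WT 1 d replicate 2 held 1 cell with 266 UMIs and was left out, leaving a single WT mouse at 1 d, for which the fits take over the variation seen in the other conditions. Replicate 1 of WT and of cKO at 1 d and at 7 d stood apart from the rest, with 414 to 548 median UMIs per cell against 1040.5 to 3637 in the other 11 libraries. These 4 low-depth libraries also shared cell barcodes. In their 6 pairs, 28 to 115 barcodes were found in both libraries, 341 in all, and in 92.4% of those the cells had been put in the same cluster. In the other 114 pairs of libraries, 0 to 4 barcodes were shared, 54 in all, with 18.5% in the same cluster. Of the 5237 cells of the low-depth libraries, 335 (6.40%) had a barcode that another of them held, so these libraries are not fully separate, and results are given with and without them. Without them no WT mouse is left at 1 d, so that differences between genotypes over injury, and between genotypes in the change with injury, then cover 7 d and 14 d only. Conditions follow the sample titles, which the deposited cell table matches in all 16 libraries. The names of the cells carry another condition in 6 libraries, all of them replicate 2: cKO uninjured in place of WT uninjured, WT 7 d in place of cKO uninjured, WT 14 d in place of WT 1 d, WT 1 d in place of WT 7 d, cKO 14 d in place of WT 14 d, and cKO 7 d in place of cKO 14 d. Which of these is right was not tested, and every comparison was repeated under the cell names.

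The clusters, with their names, were taken over from the authors. Of the markers chosen for each type, 6 of 7 astrocyte markers had their highest level in Cluster 5 or Cluster 7, with Slc1a3 slightly higher in Cluster 6 microglia. All 5 endothelial and all 5 Schwann cell markers, 5 of 6 fibroblast markers, 4 of 5 oligodendrocyte precursor cell (OPC) markers and 4 of 7 neuron markers peaked in the cluster of that name. Cluster 2, named as astrocytes, had the highest levels of the myelin genes Mbp and Mobp and of the neuron genes Snap25, Gad1 and Gad2. The clusters named as astrocytes were therefore described by number. Fits over Clusters 2, 5 and 7 together were run but are not reported here.

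Ryk, the gene deleted in cKO mice, was counted in Clusters 5 and 7 of all 15 mice. Levels are UMIs of the gene per 1e6 UMIs of all genes in the same cells of a mouse (CPM). In Clusters 5 and 7 together, Ryk had a lowest, median and highest level of 70.1, 115 and 170 CPM in the 7 WT mice, and of 24.0, 105 and 136 CPM in the 8 cKO mice. Its means were 118 ± 30.1 CPM (SD, n = 7) in WT and 97.3 ± 38.9 CPM (SD, n = 8) in cKO, and the genotypes overlapped. Tags are read near the 3′ end, which the deletion may have left in place, so these counts check neither the deletion nor the labels.

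The members fell into a few patterns over the 17 clusters. Levels are means over mice with at least 10 cells in the cluster, and clusters in which a member had fewer than 10 UMIs in all were not ranked. Wnt7a was highest in Cluster 7 and Wnt7b in Clusters 5 and 7, Wnt9a, Wnt4 and Wnt6 in fibroblasts, and Wnt5a in endothelial cells and fibroblasts. Among the inhibitors, Sfrp5 and Dkk3 were highest in Schwann cells, Sfrp1 was counted mainly in fibroblasts and neurons, apart from 1 cell among the OPCs, and Wif1 was counted mainly in fibroblasts and neurons. The clusters were made from the same cells, so these orders are descriptions without a test.

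**Figure D1:**
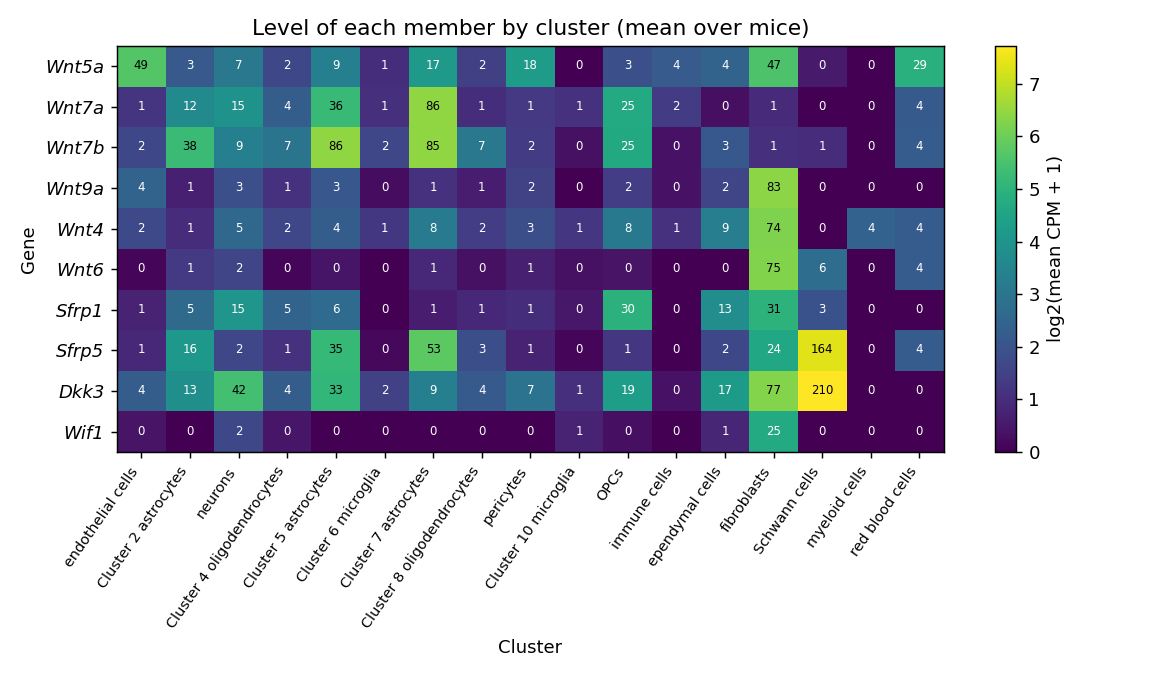
Level of each member (rows) in each of the 17 clusters (columns), with the mean CPM over mice printed in each cell and the colour on a log2(mean CPM + 1) scale. Wnt7a and Wnt7b are brightest in Clusters 5 and 7, Wnt9a, Wnt4 and Wnt6 in fibroblasts, and Sfrp5 (164 CPM) and Dkk3 (210 CPM) in Schwann cells.

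Wnt7a (ENSMUSG00000030093.7, chr6:91363981-91411363 of mm10, minus strand) and Wnt7b (ENSMUSG00000022382.15, chr15:85535437-85582473, minus strand) encode closely related ligands that signal to brain and cord endothelium through Reck and Adgra2. Wnt7a had 664 UMIs in all, 50.2% of them in Cluster 7. Its level there was 85.6 ± 31.0 CPM (SD, n = 15) and had a lowest, median and highest value of 26.5, 84.0 and 143 CPM. Cluster 5 followed at 36.4 ± 35.8 CPM (SD, n = 14), below Cluster 7 in 12 of the 14 mice that had both, a difference within its spread over mice. OPCs had 25.2 CPM, neurons 14.7 CPM, Cluster 2 had 11.9 CPM, Cluster 4 oligodendrocytes 3.81 CPM and endothelial cells 1.30 CPM, and no step in this order was larger than its spread over mice. Cluster 7 was still the highest without the low-depth libraries, with Wnt7a at 91.3 CPM (n = 11).

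Wnt7b had 899 UMIs, 39.4% of them in Cluster 7 and 26.6% in Cluster 5. Its levels in Cluster 5 and Cluster 7 were 86.1 ± 47.0 CPM (SD, n = 14) and 85.2 ± 32.4 CPM (SD, n = 15), and each cluster was the higher in 7 of 14 mice. Cluster 2 followed at 37.5 ± 35.3 CPM (SD, n = 11), below Cluster 7 in 10 of 11 mice and by more than the spread of the difference (51.8 ± 43.9 CPM, SD). OPCs had 25.02 CPM, neurons 8.999 CPM, Cluster 8 oligodendrocytes 7.47 CPM, Cluster 4 oligodendrocytes 6.89 CPM and endothelial cells 2.22 CPM, with no step beyond its spread. The level in Cluster 5 was 74.0 CPM (n = 10) without the low-depth libraries, and Cluster 7 was then the highest. Over the 17 clusters, the patterns of Wnt7a and Wnt7b were much alike, with Pearson's r = 0.903 between their log2(mean CPM + 1) values. Of 13336 genes with at least 300 UMIs, those most like Wnt7a were Etv4 (r = 0.964), Gabra4 (r = 0.923) and Ntm (r = 0.921), and those most like Wnt7b were Dbx2 (r = 0.977), Slc1a2 (r = 0.944) and Ncan (r = 0.938). These correlations are over clusters of the same cells, which share libraries and depth.

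In single cells of Cluster 7, Wnt7a was found in 206 and Wnt7b in 236 of 1012 cells, and 82 cells held both. That is 39.8% of the cells with Wnt7a and 34.7% of the cells with Wnt7b. Cells with both genes had a median of 9927 UMIs, cells with 1 of them 4809.5 and cells with neither 1482.5, so the overlap moved with depth, and its part in the overlap was not tested.

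Levels in Cluster 7 were compared between injured and uninjured mice and between genotypes, in 6 comparisons over mice. Wnt7a in uninjured mice was at 58.0 and 79.7 CPM in WT and at 143 and 118 CPM in cKO (replicates 1 and 2). After injury, Wnt7a in WT was at 96.6 CPM at 1 d, at 26.5 and 106 CPM at 7 d and at 134 and 84.0 CPM at 14 d. In cKO it was at 72.1 and 58.4 CPM at 1 d, at 84.1 and 55.2 CPM at 7 d and at 79.6 and 88.2 CPM at 14 d. Both uninjured cKO mice lay above both uninjured WT mice, the cKO mice at 1 d lay below the WT mouse, and the genotypes overlapped at 7 d and 14 d. The values of the low-depth mice at 1 d and 7 d rest on 1 to 3 UMIs each. Fitted with the other genes of Cluster 7, the log2 fold change of Wnt7a between uninjured cKO and WT mice was 0.85 (standard error 0.49, adjusted p = 1.0 by the edgeR quasi-likelihood test, Benjamini-Hochberg adjusted). Over the injured time points it was −0.44 (standard error 0.41), from −0.58 without WT 14 d replicate 2 to 0.23 without WT 7 d replicate 2, and the change with injury differed between cKO and WT by −1.29 (standard error 0.64). That difference had an unadjusted p = 0.0472 and an adjusted p = 0.888 by the edgeR quasi-likelihood test, Benjamini-Hochberg adjusted, so it did not pass, and the difference was −0.63 without WT 7 d replicate 2. Without the low-depth libraries, and so with 7 d and 14 d as the only injured time points compared, the 3 values were 0.86, −0.65 and −1.50, and none passed.

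Wnt7b in uninjured mice was at 75.0 and 101 CPM in WT and at 91.3 and 85.5 CPM in cKO. In injured WT mice it was at 32.2 CPM at 1 d, at 133 and 96.0 CPM at 7 d and at 67.1 and 61.7 CPM at 14 d. In injured cKO mice it was at 144 and 113 CPM at 1 d, at 28.0 and 95.4 CPM at 7 d and at 62.5 and 91.5 CPM at 14 d. Both cKO mice exceeded the WT mouse at 1 d, and both lay below the WT mice at 7 d. The 32.2 and 28.0 CPM values are 1 UMI each, in low-depth libraries, and the genotypes overlapped at 14 d and in uninjured mice. Between cKO and WT, the log2 fold change was 0.73 (standard error 0.47) over the injured time points, −0.25 (standard error 0.47) at 7 d and 0.29 (standard error 0.41) at 14 d. These became 0.12, −0.05 and 0.30 without the low-depth libraries, where the first covers 7 d and 14 d only, so that the libraries and the time points cannot be told apart. On leaving out single mice, the value over injury ran from −0.0079 without WT 1 d replicate 1 to 0.78 without cKO 7 d replicate 1, and that at 14 d from −0.036 without cKO 14 d replicate 2 to 0.48 without cKO 14 d replicate 1. Under the cell names the value at 14 d was −0.11, so the directions are not settled. The value at 7 d was −2.15 without cKO 7 d replicate 2 and −0.09 without cKO 7 d replicate 1.

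In the 6 comparisons of Cluster 7, 4 members passed the filter on low counts, namely Wnt7a, Wnt7b, Wnt5a and Sfrp5. With injury (mean of the injured groups against the uninjured groups), edgeR's quasi-likelihood test called 0 of the 4 members, against 18 of 7966 genes (0.226%). The log2 fold changes with injury were −0.28 for Wnt7a, −0.31 for Wnt7b, −0.48 for Sfrp5 and 0.79 (standard error 0.77) for Wnt5a, where the median over all genes tested was −0.14. The value of Wnt5a was −0.09 without WT 7 d replicate 2, and Wnt5a did not pass the filter without the low-depth libraries. Between cKO and WT over injury it called 0 members against 1 gene (0.0126%), at 7 d 0 members against 4 genes (0.0502%) and at 14 d 0 members against 3 genes (0.0377%). Between uninjured cKO and WT mice it called 0 members and 0 genes (0%), with 308 genes at an unadjusted p under 0.05 and 0 genes called by DESeq2. For the difference between genotypes in the change with injury, 0 members and 2 genes (0.0251%) were called. At an unadjusted p under 0.05, there was 1 member for that last comparison, which is Wnt7a, beside 440 of 7966 genes, and 0 members for each of the other 5, beside 554 genes with injury, 394 over injury, 212 at 7 d, 265 at 14 d and the 308 in uninjured mice. DESeq2 called 0 members in each of the 6 comparisons. With the replicate number as a block, the counts of all genes moved to 5 over injury, 9 at 7 d, 9 at 14 d, 4 in uninjured mice and 8 for the difference in change, still with 0 members. The count with injury was 58 genes without WT uninjured replicate 1 and 2 without WT uninjured replicate 2 or without cKO uninjured replicate 2. Between uninjured mice it was 28 without WT uninjured replicate 2, and at 14 d 15 without WT 14 d replicate 1 or without WT 14 d replicate 2 and 1 without WT 1 d replicate 1. Over injury it was 7 without WT 14 d replicate 1 and 0 without cKO 1 d replicate 2, and at 7 d 9 without cKO uninjured replicate 2 and 0 without WT 7 d replicate 2 or without cKO 7 d replicate 2. For the difference in change it was 19 without WT uninjured replicate 2 and 0 without WT 1 d replicate 1. A p above the threshold does not show that the levels were equal.

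**Figure D2:**
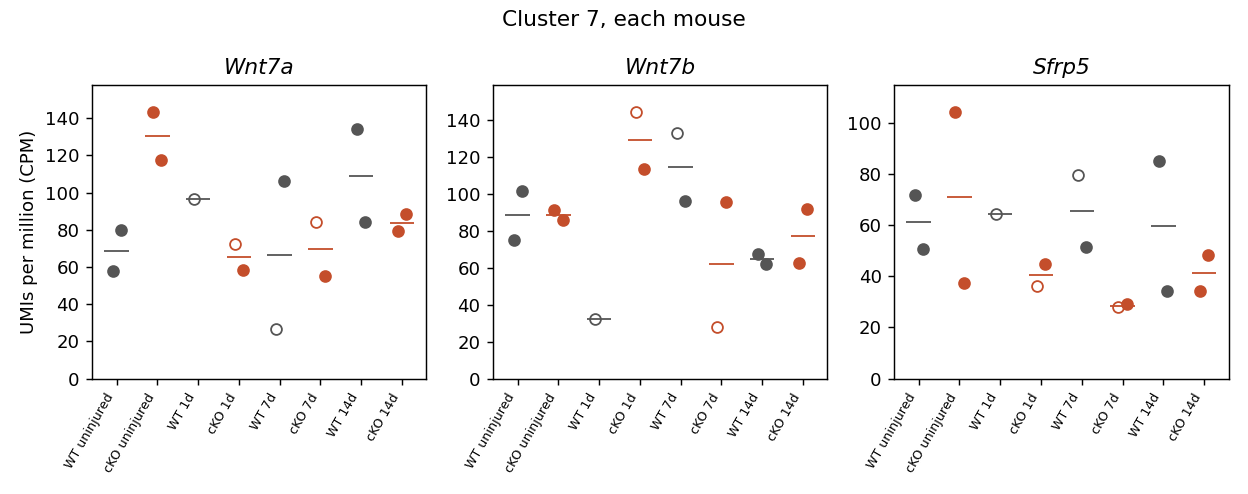
CPM of Wnt7a, Wnt7b and Sfrp5 in Cluster 7 of each mouse, by condition, with WT in grey and cKO in orange, open points for the low-depth libraries and a line at the mean of each condition. Uninjured cKO mice lie above uninjured WT mice for Wnt7a (143 and 118 against 58.0 and 79.7 CPM), and the genotypes overlap at 14 d in all 3 panels.

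The share of Cluster 7 cells with a UMI followed the depth of the mice. Over all 1012 cells, Wnt7a was found in 20.4% (95% exact Clopper-Pearson interval 17.9 to 23.0, counting error only) and Wnt7b in 23.3% (20.7 to 26.1). The same genes were found in 0.517% and 0.423% of 2129 microglia (Clusters 6 and 10), which stand for the background from free RNA, with a median of 978 UMIs per cell against 2882 in Cluster 7. With every cell thinned to 1000 UMIs, which left out 310 shallower cells of Cluster 7, the shares were 7.73% for Wnt7a and 7.58% for Wnt7b, against 0.188% and 0.210% in microglia. At 14 d, Wnt7b was found in 25.8% of WT cells and 47.0% of cKO cells, where the median UMIs per cell were 4326.5 and 7469. Thinned, these shares were 5.54% and 7.26%. Averaged over time points, the share with Wnt7b was 11.9 percentage points higher in injured cKO mice (exact two-sided permutation of genotypes within time points, p = 0.241, where 108 arrangements allow a smallest p of 0.00926). Genotypes were permuted across replicate numbers, which go with depth at 1 d and 7 d. At 1 d the shares were 1.39% in the low-depth WT mouse, 5.88% in the low-depth cKO mouse and 23.1% in the deeper cKO mouse. Thinned, the difference for Wnt7b was 1.60 points (exact two-sided permutation p = 0.333, with a smallest possible p of 0.167, so this design cannot reach 0.05). For Wnt7a, the difference was 0.465 points unthinned (exact two-sided permutation p = 0.944) and −4.09 points thinned (exact two-sided permutation p = 0.333). The thinned values leave out the low-depth libraries and so cover 7 d and 14 d only. On the same mice and time points, the unthinned differences were −5.58 points for Wnt7a and 15.5 points for Wnt7b, so the sign for Wnt7a turned with the mice and time points and not with thinning. Leaving out single mice, the difference for Wnt7a ran from −6.62 points without WT 7 d replicate 1 to 7.55 points without WT 7 d replicate 2. That for Wnt7b ran from 4.33 points without cKO 7 d replicate 2 to 19.5 points without cKO 7 d replicate 1.

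**Figure D3:**
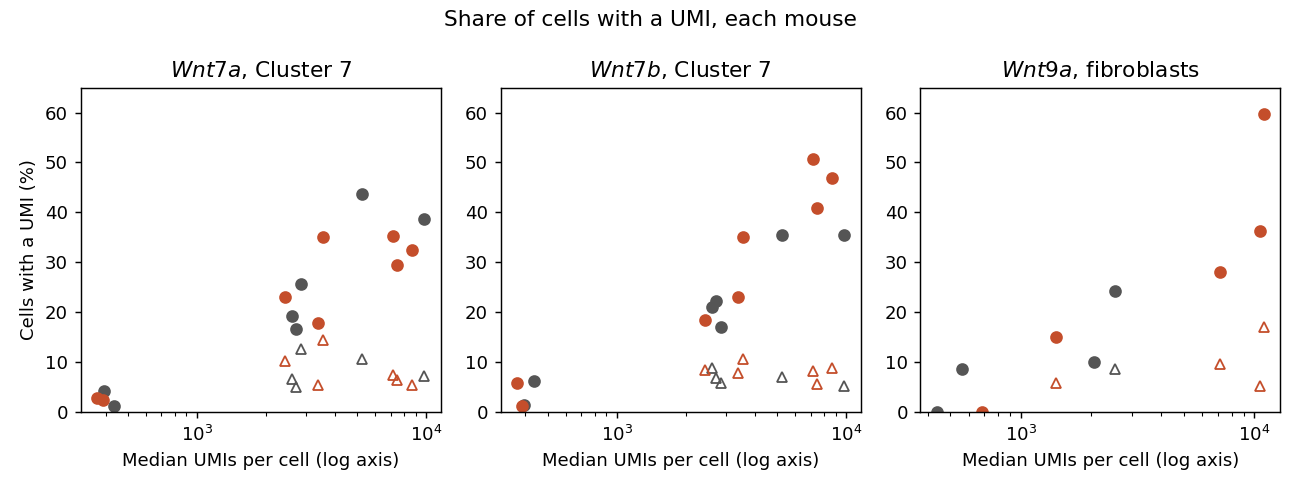
Percent of cells with a UMI of Wnt7a and Wnt7b in Cluster 7 and of Wnt9a in fibroblasts against the median UMIs per cell (log axis), for each mouse with at least 10 cells, with WT in grey and cKO in orange. Filled circles are all cells and open triangles are cells thinned to 1000 UMIs, shown for mice with at least 10 such cells. The unthinned shares climb with depth, up to 59.7% for Wnt9a in cKO 7 d replicate 2, where the thinned share is 17.003%.

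Wnt5a (ENSMUSG00000021994.15, chr14:28504750-28527448, plus strand) encodes the best-studied ligand of the β-catenin-independent branch and binds Ror2 and Ryk. It had 949 UMIs, 59.5% of them in endothelial cells, where 7.24% of 4201 cells held a UMI. Its level was 48.9 ± 16.5 CPM (SD, n = 15) in endothelial cells and 46.6 ± 33.5 CPM (SD, n = 9) in fibroblasts, with endothelial cells higher in 4 of 9 mice. Pericytes followed at 18.0 CPM, below fibroblasts in 7 of 9 mice and by more than the spread of the difference (34.6 ± 27.0 CPM, SD). Cluster 7 had 17.05 CPM, Cluster 5 had 9.13 CPM, neurons 7.48 CPM, immune cells 3.61 CPM and Cluster 4 oligodendrocytes 2.21 CPM, and these did not differ from their neighbours beyond the spread over mice. Without the low-depth libraries, endothelial cells had 46.5 CPM (n = 11) and fibroblasts were the highest cluster. The genes most like Wnt5a over the 17 clusters were Adamtsl2 (r = 0.930), Flrt2 (r = 0.916) and Nr1d1 (r = 0.894). This likeness also takes in clusters that were not ranked. Among them, red blood cells had 28.7 CPM of Wnt5a (n = 4), all from 1 UMI of 1 mouse, at 115 CPM.

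In endothelial cells of uninjured mice, Wnt5a was at 67.1 and 27.0 CPM in WT and at 15.4 and 35.6 CPM in cKO. In injured WT mice it was at 39.8 CPM at 1 d, at 53.6 and 68.0 CPM at 7 d and at 61.4 and 51.6 CPM at 14 d. In injured cKO mice it was at 74.4 and 30.4 CPM at 1 d, at 54.5 and 50.5 CPM at 7 d and at 52.5 and 52.0 CPM at 14 d. The genotypes overlapped in uninjured mice and at each time point, and the lowest value, in cKO uninjured replicate 1, rests on 2 UMIs. The log2 fold change with injury was 0.17 (standard error 0.29, adjusted p = 0.920 by the edgeR quasi-likelihood test, Benjamini-Hochberg adjusted), and between cKO and WT over injury it was −0.01 (standard error 0.30). They were 0.16 and −0.28 without the low-depth libraries, the second over 7 d and 14 d only. Of the members, Wnt5a and Wnt9a passed the filter in endothelial cells, and edgeR called 0 of them and 0 of 10985 genes (0%) with injury, between genotypes over injury and for the difference in change alike. The genes with p under 0.05 before adjustment numbered 783, 311 and 353, with 1 member, Wnt9a, in the last comparison only. Its adjusted p = 1.0 (unadjusted p = 0.0331) by the edgeR quasi-likelihood test, Benjamini-Hochberg adjusted, so it did not pass. Wnt9a had 43 UMIs in endothelial cells of all mice and 0 in both cKO mice at 1 d, so its fold is not given. Its highest level there, 23.0 CPM in cKO uninjured replicate 1, is 3 UMIs. DESeq2 called 0 genes in each. The count with injury was 78 genes without WT uninjured replicate 1, and for the difference in change it was 2 without WT uninjured replicate 2.

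Wnt9a, Wnt4 and Wnt6 shared fibroblasts as their highest cluster. Wnt9a (ENSMUSG00000000126.11, chr11:59306928-59333552, plus strand) encodes a ligand known from the formation of joints. It had 392 UMIs, 72.7% of them in fibroblasts, where it was at 82.8 ± 67.4 CPM (SD, n = 9). Endothelial cells followed at 4.48 ± 5.79 CPM (SD, n = 15), lower in 7 of 9 mice and by more than the spread of the difference, ahead of neurons at 2.73 CPM and pericytes at 1.80 CPM. Fibroblasts had 101 CPM (n = 6) without the low-depth libraries. The genes most like it were Smoc2 (r = 0.930), Lama1 (r = 0.901) and Slc47a1 (r = 0.892), and its pattern was also like that of Wnt4 (r = 0.815). The mean of Wnt4 in fibroblasts that enters this r was 73.8 CPM, against a median over mice of 22.5 CPM. Of its 124 UMIs there, 72 came from 1 cell.

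In fibroblasts, 9 mice had at least 10 cells, 4 WT and 5 cKO, and no uninjured cKO mouse was among them, so a change with injury was not tested. Wnt9a was at 42.4 CPM in the uninjured WT mouse. In injured WT mice it was at 0 CPM at 1 d, at 139 CPM at 7 d and at 78.9 CPM at 14 d, and in cKO mice at 0 and 74.4 CPM at 1 d, at 207 CPM at 7 d and at 73.0 and 131 CPM at 14 d. Both values of 0 come from low-depth libraries with 5446 and 7330 UMIs in fibroblasts, and a count of 0 leaves room for up to about 3 UMIs, so with so few counts these mice could lie as high as any of the others. The WT value at 7 d, also low-depth, rests on 3 UMIs, whereas cKO 7 d replicate 2 held 206 of the 285 UMIs. At 14 d the WT mouse lay between the cKO mice. The log2 fold change of cKO against WT was 0.85 (standard error 1.11) at 7 d and 0.12 (standard error 0.78, adjusted p = 0.978 by the edgeR quasi-likelihood test, Benjamini-Hochberg adjusted) at 14 d. With the replicate number as a block both turned sign, to −0.18 and −0.44, so the direction is not settled. At 7 d 1 WT mouse is compared with 1 cKO mouse, for Wnt9a as for the other members in fibroblasts. The WT mouse is a low-depth library, so no value without these libraries could be fitted, and genotype and depth cannot be told apart.

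The share of fibroblasts with a UMI of Wnt9a was 30.4% of 240 cells (95% exact Clopper-Pearson interval 24.7 to 36.7), against 0.0470% in microglia with a median of 978 UMIs per cell, where fibroblasts had 2614. Thinned to 1000 UMIs it was 11.5% against 0.0100%. Of the 73 cells with a UMI, 43 came from cKO 7 d replicate 2, so both pooled shares rest largely on 1 mouse. The interval covers counting error over cells only. At 7 d the share was 8.57% in WT, 3 of 35 cells, and 59.7% in cKO, 43 of 72 cells, with median UMIs per cell of 564 and 11017. At 14 d it was 24.2% in WT and 31.9% in cKO, and thinned it was 8.60% and 7.58%. The mean difference over time points was 22.2 percentage points (exact two-sided permutation p = 0.167, with a smallest possible p of 0.0556, so this design cannot reach 0.05). Thinned, only 14 d could be compared and the difference was −1.22 points (exact two-sided permutation p = 1.0), and at 14 d alone, without the low-depth libraries, the unthinned difference was 7.94 points. Without WT 7 d replicate 1 or without cKO 7 d replicate 2 the unthinned difference was 7.72 points.

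Wnt4 (ENSMUSG00000036856.4, chr4:137277489-137299726, plus strand) encodes a ligand needed for kidney tubules and the female gonad. It had 308 UMIs, 40.3% of them in fibroblasts, at a level of 73.8 ± 108 CPM (SD, n = 9). Ependymal cells had 8.86 CPM, Cluster 7 had 7.79 CPM, OPCs 7.69 CPM, neurons 4.94 CPM, pericytes 2.63 CPM and endothelial cells 2.24 CPM, and no step in this order went beyond its spread over mice. By mouse, Wnt4 in fibroblasts was at 0 CPM in the uninjured WT mouse and at 0, 46.2 and 19.7 CPM in WT at 1 d, 7 d and 14 d. In cKO it was at 273 and 14.9 CPM at 1 d, at 38.2 CPM at 7 d and at 250.2 and 22.5 CPM at 14 d. The mice at 273 and 250.2 CPM stand high, the first on 2 UMIs in a low-depth library and the second on 72 UMIs. All 72 UMIs came from 1 cell of cKO 14 d replicate 1, which had 46678 UMIs in all. That cell also held 14 UMIs of Wnt6, 12 of Dkk3, 9 of Wif1 and 7 of Wnt5a, with UMIs of 5 of 6 fibroblast markers (509 UMIs), 2 pericyte or smooth muscle markers (213 UMIs) and 4 endothelial markers (80 UMIs). Whether it is more than 1 cell was not tested. Pooled over mice, the level of Wnt4 in fibroblasts was 64.9 CPM with this cell and 27.9 CPM without it, a comparison added after the data had been seen. The log2 fold change at 14 d was 2.55 (standard error 1.103, unadjusted p = 0.0208, adjusted p = 0.279 by the edgeR quasi-likelihood test, Benjamini-Hochberg adjusted), and it was 0.01 without cKO 14 d replicate 1. Without the low-depth libraries it was 2.58, and 57.6 CPM was the mean level in fibroblasts (n = 6). Only cKO at 14 d then had more than 1 mouse. The genes most like Wnt4 over clusters were Gm11520 (r = 0.854), Cxadr (r = 0.822) and Dapl1 (r = 0.818).

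Wnt6 (ENSMUSG00000033227.7, chr1:74771892-74785322, plus strand) encodes a ligand known from embryonic ectoderm. It had 166 UMIs, 60.2% of them in fibroblasts, at 75.2 ± 63.8 CPM (SD, n = 9). Schwann cells had 5.72 CPM, lower in 5 of 5 mice and by more than the spread of the difference, and neurons had 2.04 CPM. All but 1 of these 5 mice had 0 UMIs of Wnt6 among only 4106 to 58733 UMIs in Schwann cells. Their values of 0 may not place Schwann cells lower. In the other mouse, cKO 7 d replicate 2, Schwann cells were at 28.6 CPM and fibroblasts at 47.2 CPM. In fibroblasts, Wnt6 was at 0 CPM in the uninjured WT mouse and at 0, 185 and 98.6 CPM in WT at 1 d, 7 d and 14 d. In cKO it was at 136 and 119 CPM at 1 d, at 47.2 CPM at 7 d and at 59.1 and 31.6 CPM at 14 d. The cKO mice were below the WT mouse at 7 d and 14 d, with 1 WT mouse at each time point. The WT value at 7 d, 185 CPM, is the highest of the 9 mice. It comes from a low-depth library with 21623 UMIs in fibroblasts. In cKO 14 d replicate 1, 14 UMIs of Wnt6 came from the cell with 72 UMIs of Wnt4. At 1 d the 0 of the WT mouse, in a low-depth library, sets no useful upper bound, and 136 CPM is 1 UMI, so the genotypes cannot be ordered there. For Wnt6 the log2 fold change was −1.68 (standard error 1.25) at 7 d and −1.32 (standard error 0.89, adjusted p = 0.609 by the edgeR quasi-likelihood test, Benjamini-Hochberg adjusted) at 14 d, and −1.31 at 14 d without the low-depth libraries. The mean level in fibroblasts without those libraries was 59.2 CPM.

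In fibroblasts, 6 members passed the filter, namely Wnt9a, Wnt4, Wnt6, Dkk3, Sfrp5 and Wif1. Wif1 had 21 UMIs there, and its highest level, 184 CPM, is 1 UMI of WT 1 d replicate 1. Wnt5a and Sfrp1, with 109 and 88 UMIs but highest levels of 92.5 and 72.3 CPM, did not pass. Sfrp5 and Wif1 may thus have passed through 1 mouse each, and their lack of a call says little of fibroblasts. Sfrp5 had 166 of its 167 UMIs in cKO 7 d replicate 2, and with 0 UMIs in all 3 mice at 14 d it could not be called there. Over injury, groups at 0 left the folds of Sfrp5 and Wif1 without a usable standard error, so that the results at 14 d and over injury speak for 5 and 4 members. At 14 d, edgeR's quasi-likelihood test called 0 of the 6, against 55 of 4113 genes (1.34%). At 7 d it called 0 members against 1 gene (0.0243%), in a comparison of 1 WT mouse, from a low-depth library, with 1 cKO mouse. Over injury it called 0 members and 0 genes (0%). At an unadjusted p under 0.05 there was 1 member at 14 d, which is Wnt4, beside 513 of 4113 genes. There were 0 members at 7 d, beside 124 genes, and 0 over injury, beside 304 genes. DESeq2 called 0 members in each, and 2, 0 and 0 genes. The median log2 fold change of all genes tested was 0.95 over injury, 0.41 at 7 d and 0.12 at 14 d, so the values of the members stand on a shift of the whole table. Only cKO at 1 d and at 14 d had more than 1 mouse, so the tests measure no spread between WT mice. Without the low-depth libraries, the spread comes from cKO at 14 d alone. The count of 55 genes at 14 d moved to 3 with the replicate number as a block and to 409 without the low-depth libraries. It was 0 without cKO 14 d replicate 1 or without cKO 14 d replicate 2, and the WT group at 14 d is 1 mouse.

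**Figure D4:**
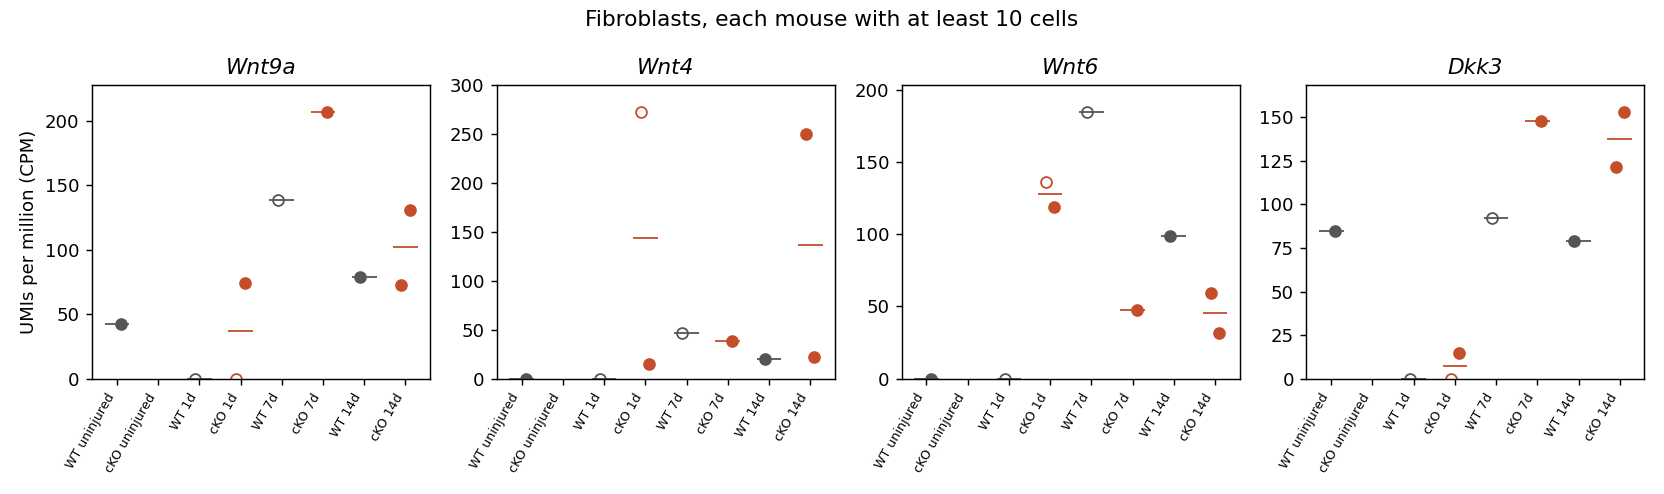
CPM of Wnt9a, Wnt4, Wnt6 and Dkk3 in fibroblasts of each mouse with at least 10 cells, by condition, with WT in grey and cKO in orange, open points for the low-depth libraries and a line at the mean of each condition. Wnt4 has 2 high mice, at 273 CPM (2 UMIs) and 250.2 CPM (72 UMIs in 1 cell), and no uninjured cKO mouse had enough cells.

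The promoters of the 3 ligands that peaked in fibroblasts were set side by side. RefSeq promoters on GRCm38.p6, from 250 bases before to 50 bases after the start of transcription, were matched for 6 of the 10 members (Wnt7a, Wnt9a, Wnt4, Wnt6, Sfrp5 and Wif1), and those of Wnt7b, Wnt5a, Sfrp1 and Dkk3 were not used here. Each window was searched on both strands, with overlapping matches counted, for CTTTGAA and its variant CTTTGAT, the letters that TCF/LEF factors prefer, for the TATA box TATAAA and for the GC box GGGCGG, which reads as CCGCCC on the other strand. The promoters of Wnt9a (chr11:59306680-59306979, plus strand), Wnt4 (chr4:137277385-137277684, plus strand) and Wnt6 (chr1:74771642-74771941, plus strand) held 5, 8 and 6 GC boxes, shown in capitals. None of these 3 windows held a TCF/LEF match or a TATA box.
Wnt9a: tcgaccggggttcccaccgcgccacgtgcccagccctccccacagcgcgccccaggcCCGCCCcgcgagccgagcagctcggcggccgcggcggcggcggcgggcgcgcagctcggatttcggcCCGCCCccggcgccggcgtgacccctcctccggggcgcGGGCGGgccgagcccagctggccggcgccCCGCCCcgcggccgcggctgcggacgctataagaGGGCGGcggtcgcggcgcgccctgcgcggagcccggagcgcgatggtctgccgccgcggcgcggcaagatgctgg
Wnt4: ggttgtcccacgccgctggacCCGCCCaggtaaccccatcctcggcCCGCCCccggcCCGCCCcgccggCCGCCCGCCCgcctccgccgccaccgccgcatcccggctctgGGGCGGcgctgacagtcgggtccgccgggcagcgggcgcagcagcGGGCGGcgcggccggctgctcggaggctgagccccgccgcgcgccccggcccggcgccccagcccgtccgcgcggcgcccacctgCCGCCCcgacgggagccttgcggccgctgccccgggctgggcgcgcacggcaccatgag
Wnt6: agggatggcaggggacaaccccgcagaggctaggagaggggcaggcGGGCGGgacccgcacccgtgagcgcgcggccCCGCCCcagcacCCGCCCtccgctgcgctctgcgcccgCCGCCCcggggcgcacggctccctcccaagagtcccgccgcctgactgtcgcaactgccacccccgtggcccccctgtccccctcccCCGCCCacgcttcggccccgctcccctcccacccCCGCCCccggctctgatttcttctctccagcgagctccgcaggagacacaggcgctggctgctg
Of all 32851 promoters of this length, 35.7% held GGGCGG, 5.14% CTTTGAA, 3.73% CTTTGAT and 13.6% TATAAA. The 3 windows had a GC content of 83.3%, 84.3% and 76.7% with 58, 51 and 31 CpG dinucleotides, against medians of 52.7% and 7 over all promoters. The promoter of Wnt7a held 6 GC boxes in a window of 76.0% GC, so GC boxes were not particular to the fibroblast ligands. These are matches of letters, not binding sites.

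Among the inhibitors, Sfrp5 (ENSMUSG00000018822.7, chr19:42197971-42202252, minus strand) encodes a Frizzled-related protein that binds Wnt ligands. It had 639 UMIs, and its level was highest in Schwann cells at 164 ± 134 CPM (SD, n = 5). Cluster 7 followed at 53.3 ± 23.0 CPM (SD, n = 15), lower than Schwann cells in 4 of 5 mice, and then Cluster 5 at 34.9 CPM, fibroblasts at 23.7 CPM, Cluster 2 at 16.2 CPM, neurons at 2.10 CPM and endothelial cells at 0.838 CPM, with no step beyond its spread. Schwann cells had 359.8 CPM in cKO 1 d replicate 2, 215 CPM in cKO 7 d replicate 2, 143 CPM in WT 14 d replicate 1, 102 CPM in cKO 14 d replicate 1 and 0 CPM in WT 7 d replicate 1. The mouse at 0 is a low-depth library with 4106 UMIs in 13 Schwann cells, and without it the mean was 205 CPM (n = 4). In fibroblasts, 166 of 167 UMIs came from cKO 7 d replicate 2, with 134 in 1 cell of 30946 UMIs and 31 in another. Both cells held UMIs of 5 of 6 fibroblast markers. The pooled level in fibroblasts was 87.4 CPM with the first of these cells and 17.6 CPM without it, again a comparison added after the data had been seen. The genes most like Sfrp5 were Entpd2 (r = 0.891), Limk2 (r = 0.847) and Cmbl (r = 0.842).

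In Cluster 7, Sfrp5 in uninjured mice was at 71.6 and 50.7 CPM in WT and at 104 and 37.4 CPM in cKO. In injured WT mice it was at 64.4 CPM at 1 d, at 79.6 and 51.4 CPM at 7 d and at 85.0 and 34.3 CPM at 14 d. In injured cKO mice it was at 36.1 and 44.7 CPM at 1 d, at 28.0 and 29.1 CPM at 7 d and at 34.1 and 48.3 CPM at 14 d. The cKO mice lay below the WT mice at 1 d and 7 d and overlapped with them at 14 d and without injury, where the cKO mice were both the highest and the lowest. The values of the low-depth mice at 1 d and 7 d (64.4, 79.6, 36.1 and 28.0 CPM) rest on 1 to 3 UMIs each. The log2 fold change of cKO against WT was −0.93 (standard error 0.60, unadjusted p = 0.127) at 7 d and −0.34 (standard error 0.47) at 14 d, and the first was −0.85 without the low-depth libraries, which hold 1 mouse of each genotype at 7 d. The value at 14 d ran from −1.03 without WT 14 d replicate 2 to 0.30 without WT 14 d replicate 1, so its direction is not settled. Over the injured time points it was −0.50 (standard error 0.50, adjusted p = 0.866 by the edgeR quasi-likelihood test, Benjamini-Hochberg adjusted), and −0.59 without those libraries, over 7 d and 14 d only.

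Dkk3 (ENSMUSG00000030772.6, chr7:112116017-112159057, minus strand) encodes a divergent Dickkopf protein whose effect on Wnt signalling depends on the cell. It had 951 UMIs, of which 29.3% lay in neurons, 26.4% in fibroblasts and 9.99% in Schwann cells. Of these, cKO 7 d replicate 2 alone gave 147 of 251 UMIs in fibroblasts and 60 of 95 in Schwann cells. The level of Dkk3 was highest in Schwann cells at 210 ± 167 CPM (SD, n = 5), with 149.9 CPM in cKO 1 d replicate 2, 143 CPM in cKO 7 d replicate 2, 47.8 CPM in WT 14 d replicate 1, 221 CPM in cKO 14 d replicate 1 and 487 CPM in WT 7 d replicate 1. The highest of these is 2 UMIs of a low-depth library, and the mean was 141 CPM without it (n = 4). Fibroblasts followed at 77.1 ± 60.0 CPM (SD, n = 9), neurons at 41.8 ± 28.0 CPM (SD, n = 15) and Cluster 5 at 33.2 CPM. OPCs had 19.3 CPM, ependymal cells 17.5 CPM, Cluster 2 had 13.4 CPM, Cluster 7 had 9.03 CPM, pericytes 6.67 CPM, endothelial cells 3.83 CPM, Cluster 4 oligodendrocytes 3.81 CPM and Cluster 8 oligodendrocytes 3.59 CPM. No neighbours in this order differed beyond their spread over mice. The genes most like Dkk3 were Slit2 (r = 0.935), Ntng1 (r = 0.915) and Rnf170 (r = 0.897), and Sfrp5 was the most like it among the members with at least 300 UMIs (r = 0.731).

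In fibroblasts, Dkk3 was at 84.8 CPM in the uninjured WT mouse and at 0, 92.5 and 78.9 CPM in WT at 1 d, 7 d and 14 d. In cKO it was at 0 and 14.9 CPM at 1 d, at 148 CPM at 7 d and at 122 and 153 CPM at 14 d. At 7 d and 14 d the cKO mice were above the WT mouse of the same day, and the WT value at 7 d is 2 UMIs. The values of 0 at 1 d come from the low-depth libraries that had 0 UMIs of Wnt9a, and set no useful upper bound. For Dkk3 the log2 fold change was 0.95 (standard error 1.26) at 7 d and 0.56 (standard error 0.77, adjusted p = 0.870 by the edgeR quasi-likelihood test, Benjamini-Hochberg adjusted) at 14 d, and 0.57 at 14 d without the low-depth libraries. Dkk3 and Wnt9a were each found in 76 of 267 fibroblasts, and 48 cells held both. They are the members found in the most fibroblasts, and the part of depth in this overlap was not tested. The cells are pooled over mice, and 43 of those with Wnt9a came from cKO 7 d replicate 2. The overlap was not split by mouse.

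In neurons of uninjured mice, Dkk3 was at 44.1 and 64.3 CPM in WT and at 11.5 and 39.3 CPM in cKO. In injured WT mice it was at 132 CPM at 1 d, which is 1 UMI in 18 cells, at 44.6 and 12.4 CPM at 7 d and at 37.2 and 32.6 CPM at 14 d. In injured cKO mice it was at 42.8 and 38.4 CPM at 1 d, at 28.2 and 31.0 CPM at 7 d and at 35.7 and 33.3 CPM at 14 d. Both uninjured WT mice lay above both uninjured cKO mice, the genotypes overlapped at 7 d and 14 d, and the 4 mice at 14 d lay close together. The values of 44.6 and 28.2 CPM at 7 d are 1 UMI each in low-depth libraries, so the overlap at 7 d rests on them. The log2 fold change with injury was −0.22 (standard error 0.45, adjusted p = 0.930 by the edgeR quasi-likelihood test, Benjamini-Hochberg adjusted), and −0.39 without the low-depth libraries. The median of all genes tested was −0.82 with all mice. For Dkk3 the value ran from −0.84 without cKO uninjured replicate 1 to 0.38 without cKO uninjured replicate 2. The change with injury differed between cKO and WT by 1.56 (standard error 0.87, adjusted p = 0.884 from the same edgeR test), and by 2.04 without those libraries, over 7 d and 14 d only, while the median of all genes tested was 1.72. It was 0.48 without cKO uninjured replicate 1 and 2.89 without cKO uninjured replicate 2. In neurons, 3 members passed the filter (Dkk3, Wnt7a and Sfrp1). With injury 0 of them and 1 of 10238 genes (0.00977%) were called by edgeR, and between genotypes over injury and for the difference in change 0 members and 0 genes (0%). Before adjustment, 913, 382 and 386 genes had p under 0.05 in these 3 comparisons, with 0 members in each, and DESeq2 called 0 genes in each. The call with injury moved to 8 genes with the replicate block and to 44 without cKO 1 d replicate 2. The median log2 fold change between genotypes over injury was 2.01 for all genes, beside a WT group at 1 d of 1 mouse with 7570 UMIs in neurons.

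Sfrp1 (ENSMUSG00000031548.7, chr8:23411502-23449632, plus strand) belongs to the same subfamily as Sfrp5 and binds Wnt ligands through a domain like that of Frizzled. Of its 287 UMIs, 30.7% were in fibroblasts, 30.3% in neurons and 12.2% in OPCs, the last mostly in 1 cell. In fibroblasts, 55 of 88 UMIs came from cKO 7 d replicate 2. The levels were 31.0 ± 25.4 CPM (SD, n = 9) in fibroblasts, 30.1 ± 64.2 CPM (SD, n = 14) in OPCs and 15.1 ± 21.5 CPM (SD, n = 15) in neurons, followed by Cluster 5 at 5.51 CPM and Cluster 4 oligodendrocytes at 4.51 CPM, with no step beyond its spread. In neurons, Sfrp1 had a median of 10.3 CPM over mice. Its highest value there, 89.2 CPM in WT 7 d replicate 1, is 2 UMIs in 1 cell of a low-depth library. In fibroblasts it ranged from 0 CPM at 1 d in the low-depth WT and cKO mice to 72.3 CPM in WT 14 d replicate 1, and the mean was 38.9 CPM without the low-depth libraries (n = 6) and 57.9 CPM over the 3 mice with at least 30 cells. In OPCs, 28 of 35 UMIs of Sfrp1 came from 1 cell of cKO 1 d replicate 2, which also held 16 of the 38 UMIs of Dkk3. That cell had 22775 UMIs, UMIs of 0 of 5 OPC markers and of all 5 oligodendrocyte markers (999 UMIs), so its name goes against its genes. Without it, the pooled level in OPCs was 3.81 CPM in place of 18.8 CPM for Sfrp1, and 11.97 CPM in place of 20.4 CPM for Dkk3, in comparisons added after the data had been seen. In OPCs, Sfrp1 and Dkk3 passed the filter, in both cases with many of their UMIs from that cell, so that their results say little of OPCs. There edgeR called 0 members and 0 of 5417 genes (0%) with injury, between genotypes over injury and for the difference in change, for which the fold of Sfrp1 had no usable standard error. Before adjustment, 307, 233 and 252 genes had p under 0.05, among them 0 members, and DESeq2 called 2, 0 and 0 genes.

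Wif1 (ENSMUSG00000020218.11, chr10:121033960-121100650, plus strand) binds Wnt ligands through a WIF domain, a fold that Ryk also carries. It had 61 UMIs in all cells, 42.6% of them in neurons and 34.4% in fibroblasts. Its level was 25.5 ± 60.2 CPM (SD, n = 9) in fibroblasts and 2.20 ± 2.68 CPM (SD, n = 15) in neurons. In fibroblasts it was at 184 CPM in WT 1 d replicate 1, which is 1 UMI of a low-depth library, at 10.1 CPM in cKO 7 d replicate 2, at 31.3 and 4.51 CPM in cKO at 14 d and at 0 CPM in the other 5 mice. Of the 9 UMIs in cKO 14 d replicate 1, all came from the cell that held 72 UMIs of Wnt4. The mean was 7.64 CPM without the low-depth libraries (n = 6), and the fitted folds, each of which involves a group at 0, are not given; none passed the test.

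Other genes of the pathway were tested in the same fits, from lists of 13 other Wnt ligands, 11 other secreted inhibitors, 8 genes of secretion and agonists, 24 receptors and co-receptors and 13 feedback and target genes. Counting too low to test was common: in Cluster 7, 1, 0, 3, 14 and 5 genes of these lists passed the filter. No gene of any of these lists was called by edgeR in the comparisons of Cluster 7, fibroblasts, endothelial cells, neurons and OPCs described for the members. In Cluster 7 with injury, 2 of the 14 receptors tested and 0 of the 5 feedback and target genes were at an unadjusted p under 0.05, beside 554 of all 7966 genes, with median log2 fold changes of −0.0003 and −0.03, beside −0.14 for all genes. Between cKO and WT over injury, 1 receptor and 0 target genes were under that value, beside 394 of all genes, with medians of −0.07 and 0.07, beside 0.18 for all genes. At 14 d there were 0 receptors and 1 target gene, beside 265 genes. At 7 d and in uninjured mice there was 1 receptor each, beside 212 and 308 genes, and 0 target genes. For the difference in change there were 2 receptors and 0 target genes, beside 440 genes. The median of the receptors was then 0.64, beside 0.32 for all genes.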

How the data were processed

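The counts deposited by the authors, UMIs per gene and cell made with Cell Ranger on mm10 and filtered by them (under 25% mitochondrial UMIs, over 200 genes), were used as given, with the clusters of the deposited cell table (Seurat, Harmony). The sums of UMIs matched that table in all 18203 cells. UMIs from free RNA were not removed and doublets were not called. Gene positions are from GENCODE vM21, by symbol. The members and the gene lists were chosen with earlier results of these data known. Counts were summed per mouse and cluster where a mouse had at least 10 cells, and fitted over the 8 conditions with edgeR 4.0.16 in R 4.3.3 (TMM scaling, the filter filterByExpr, quasi-likelihood test, Benjamini-Hochberg threshold 0.05, two-sided). P-values measure the spread between mice of the same condition. In fibroblasts, only cKO at 1 d and at 14 d had more than 1 mouse. P-values there rest on these cKO mice, and no spread between WT mice was measured. Without the low-depth libraries they rest on cKO at 14 d alone. The genes most like a member were the 3 with the highest Pearson's r over all clusters, ranked or not, among genes with at least 300 UMIs. Shares of cells were thinned to 1000 UMIs as an expected value. Alternatives for levels were the mean over cells of each cell's CPM and the clusters as they were before the authors moved cells out of Cluster 2. Further alternatives were DESeq2 1.42.0, no filter on low counts, at least 30 cells, the replicate number as a block, the conditions of the cell names, no low-depth libraries, and each mouse left out in turn, except in OPCs, where leaving out mice was not run. Leaving out the cell with the most UMIs of a gene was added after the data had been seen. The replicate number equals the batch of the deposited cell table in 16 of 16 libraries. As a check of pairing, the departures of mice with the same replicate number from their condition means correlated over genes with a median r of 0.0179 in Cluster 7, 0.0329 in neurons and 0.0647 in endothelial cells over 21 pairs of conditions, with r over 0.1 in 1, 7 and 10 pairs and up to 0.118, 0.267 and 0.541. The fits had been fixed without a block. Batch effects are not excluded in any class, since a correlation over all genes does not test single genes. Fibroblasts and OPCs were not part of this check. The blocked fits are therefore given as an alternative. The code was run on simulated data before use. These covered the change with injury, genotypes over injury and the difference in change, but not single time points or uninjured mice. They had the depth of Cluster 7, endothelial cells, neurons and fibroblasts, and OPCs were not simulated. At these depths many changed genes were not called, with the fewest called in fibroblasts and neurons. The test of a difference in change called almost none, also at an equal, higher depth. Absence of a call carries little weight in these cases. The limits first set, on the share of changed genes called and on their signs at the observed depth, were not met between genotypes in neurons and were dropped after this had been seen. The limits kept are on estimates and signs at an equal, higher depth and on false calls, all of which were met. The first limit on calls is also not met in fibroblasts and for the difference in change. Python 3.11.15 with numpy 2.4.6, pandas 2.3.3, scipy 1.17.1 and matplotlib 3.10.9 was used for the rest.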

Additional observations from a re-analysis of the deposited data

Results flagged for a closer look

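Of 13 levels searched for a mouse far from the others, 4 had such a mouse. A chance of about 1 in 20 for each level is not known to hold where levels rest on few UMIs. Wnt4 in ependymal cells was at 47.8 CPM in cKO 14 d replicate 2 (6 UMIs in 20 cells), with the next of 10 mice at 23.6 CPM. Wnt6 in Schwann cells was at 28.6 CPM in cKO 7 d replicate 2 (12 UMIs in 103 cells), with the other 4 mice at 0 CPM. Those 4 mice had 4106 to 58733 UMIs of all genes in Schwann cells, against 419397. With so few UMIs, the values of 0 may not place them lower. Sfrp5 in fibroblasts was at 167 CPM in cKO 7 d replicate 2 (166 UMIs in 72 cells), with the next of 9 mice at 46.2 CPM. Wif1 in fibroblasts was at 184 CPM in WT 1 d replicate 1 (1 UMI in 12 cells), with the next of 9 mice at 31.3 CPM. The cause was not tested.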

How the results depend on the processing

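Conditions hold at most 2 mice, and WT at 1 d is 1 mouse. With these numbers and depths, small differences may have been missed. Depth and replicate number go together at 1 d and 7 d, where each replicate 1 is a low-depth library, and these libraries share barcodes. Levels in fibroblasts and Schwann cells rest on 9 and 5 mice and in part on single cells or single UMIs. Shares of cells follow depth and are read thinned. The conditions of the cell names could not be checked against the mice.

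No member was called under any alternative or without any mouse. Of the comparisons of values with alternatives other than leaving out a mouse, 362 were the same, 62 moved and 18 reversed, and on leaving out a mouse 742 were the same, 81 moved and 30 reversed. A count, or a pooled level without the cell with the most UMIs, is taken as the same within 1.5 times, a level over mice within 1 SD, and a fold change or a difference in shares while it keeps its sign and passes or fails the test as before. The counts of all genes called moved as follows.

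In Cluster 7 at 14 d (3 genes) the count was 0 with DESeq2, 7 without the filter on low counts, 9 with the replicate block, 30 with the conditions of the cell names, 5 with at least 30 cells and 1 without the low-depth libraries, and 1 to 15 on leaving out a mouse. At 7 d (4) it was 0, 10, 9, 43 and 7 for the first 5 of these alternatives, and 0 to 9 on leaving out a mouse. Over injury (1) it was 0, 4, 5, 20, 3 and 3, and 0 to 7. In uninjured mice (0) it was 6 without the filter, 4 with the replicate block, 22 with the cell names and 2 with at least 30 cells, and 0 to 28. With injury (18) it was 1 with DESeq2, 4 with the cell names and 7 without the low-depth libraries, and 2 to 58. For the difference in change (2) it was 0 with DESeq2, 8 with the replicate block, 37 with the cell names, 4 with at least 30 cells and 1 without the low-depth libraries, and 0 to 19.

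In fibroblasts at 14 d (55) the count was 2 with DESeq2, 17 without the filter, 3 with the replicate block, 15 with the cell names and 409 without the low-depth libraries, and 0 to 26 on leaving out a mouse. At 7 d (1) it was 0 with DESeq2, 0 with the replicate block and 4 with the cell names, and 0 to 1. Over injury (0) it was 1 with the cell names, and 0 to 1. A limit of 30 cells left too few mice to fit. In neurons with injury (1) it was 0 with DESeq2, 21 without the filter, 8 with the replicate block, 5 with the cell names, 0 with at least 30 cells and 0 without the low-depth libraries, and 0 to 44. Between genotypes in neurons (0) it was 10 without the filter, 1 with the cell names and 1 without the low-depth libraries, and for the difference in change (0) it was 3 without the filter. In endothelial cells (0) it was 158 with injury, 35 between genotypes and 22 for the difference in change without the filter, and 2 between genotypes without the low-depth libraries, with 0 to 78 for injury and 0 to 2 for the difference in change on leaving out a mouse. In OPCs (0) it was 7 with injury, 1 between genotypes and 1 for the difference in change without the filter, and 2 with injury with DESeq2.

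Log2 fold changes that reversed with the cell names were those in Cluster 7 of Wnt7a with injury (0.17) and of Wnt7b at 14 d (−0.11), in uninjured mice (0.34) and for the difference in change (−0.27), and in fibroblasts of Wnt9a at 14 d (−0.35) and of Wnt4 at 7 d (−0.24). With at least 30 cells, Wnt7b in uninjured mice (0.018) and Sfrp5 for the difference in change (0.22) reversed. With DESeq2, Sfrp5 in uninjured mice (0.036), Wnt4 at 7 d (−0.18) and Wnt5a between genotypes in endothelial cells (0.014) reversed, and without the filter the last was 0.015. With the replicate block, Wnt9a was −0.18 at 7 d and −0.44 at 14 d in fibroblasts and Wnt5a 0.026 between genotypes in endothelial cells.

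On leaving out a mouse, the log2 fold change in Cluster 7 of Wnt7a ran from −0.62 to −0.17 with injury, from −0.70 to 0.0063 at 14 d, from −0.95 to 1.39 at 7 d, from −0.58 to 0.23 over injury, from 0.57 to 1.09 in uninjured mice and from −1.54 to −0.63 for the difference in change. That of Wnt7b ran from −0.63 to −0.03 with injury, from −0.036 to 0.48 at 14 d, from −2.15 to −0.09 at 7 d, from −0.0079 to 0.78 over injury, from −0.30 to 0.19 in uninjured mice and from 0.03 to 1.03 for the difference in change. That of Sfrp5 ran from −0.83 to −0.19 with injury, from −1.03 to 0.30 at 14 d, from −1.29 to −0.89 at 7 d, from −0.74 to −0.30 over injury, from −0.74 to 0.48 in uninjured mice and from −0.98 to 0.22 for the difference in change, and that of Wnt5a from −0.090 to 2.84 with injury. In endothelial cells, that of Wnt5a ran from −0.012 to 0.82 with injury, from −0.20 to 0.20 between genotypes and from −0.044 to 1.89 for the difference in change. In neurons, that of Dkk3 ran from −0.84 to 0.38 with injury, from 0.01 to 0.61 between genotypes and from 0.48 to 2.89 for the difference in change. In fibroblasts, where a mouse could be left out and the gene still passed the filter, Wnt4 ran from −0.11 to 0.18 at 7 d and from 0.01 to 3.41 at 14 d, Wnt9a from 0.90 to 1.03 and from 0.08 to 0.15, Wnt6 from −1.63 to −1.50 and from −1.35 to −1.29, and Dkk3 from 0.99 to 1.12 and from 0.52 to 0.59.

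The share of cells with Wnt7a differed by −4.09 points thinned, by −5.58 points without the low-depth libraries and by −6.62 to 7.55 points on leaving out a mouse, and that with Wnt9a by −1.22 points thinned. With at least 30 cells, which leaves 3 mice in fibroblasts, levels there were 57.9 CPM for Sfrp1, 142 CPM for Wnt9a, 34.7 CPM for Wnt4, 110.3 CPM for Wnt6 and 3.35 CPM for Wif1, all but the first within 1 SD of the level over 9 mice. Schwann cells were then left with 1 mouse, at 215 CPM for Sfrp5 and 143 CPM for Dkk3, and among clusters with at least 3 mice fibroblasts were the highest for Sfrp5, Dkk3 and Wnt5a. As a mean over cells, Sfrp1 in fibroblasts was at 18.4 CPM and Wnt5a in endothelial cells at 40.4 CPM, with fibroblasts then the highest for Wnt5a. With the earlier clusters no level moved by 1 SD. Pooled levels without the cell with the most UMIs were 27.9 CPM for Wnt4, 17.6 CPM for Sfrp5 and 6.44 CPM for Wif1 in fibroblasts, and 3.81 CPM for Sfrp1 and 11.97 CPM for Dkk3 in OPCs.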
